A study of Macaca mulatta with 18 samples.

Results

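The collagens, laminins, nidogens and integrin subunits of rhesus macaque fetal brain are described here across the tissues that the labels call CP and GZ. Members were all genes of the deposited RNA table whose macaque symbol starts with COL and a digit, with LAMA, LAMB or LAMC, or with ITGA or ITGB and a digit or letter, together with NID1 and NID2. The rule found 82 of 22345 genes, namely 41 collagen chains, 12 laminin or nidogen genes, 25 integrin subunits and 4 genes that share the symbol pattern but code for no subunit. LAMA1, LAMA5, COL7A1, COL10A1, COL24A1 and ITGAD are not analysed here.

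The study compared 3-dimensional genome folding, open chromatin and expression between both tissues in 18 samples, of which the 6 RNA-seq libraries were used. RNA came from cells of CP (3 libraries) and of GZ (3 libraries) of wild type fetuses at embryonic day 84, without treatment, and libraries are numbered 1 to 3 in each tissue. The labels spell out neither abbreviation. Nor do they say which libraries stem from different fetuses, and the spread between libraries on which the p-values rest may in part be technical. Values are log2 normalized FPKM, a level per transcript length on a log2 scale, and each difference is CP minus GZ on that scale. After a difference between the tissues, ± is the limma standard error, and after a mean, ratio or share within 1 tissue it is the SD over its 3 libraries. Read depth is unknown.

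Basement membranes are thin sheets of matrix that line blood vessels and the outer surface of the brain. Laminins, each a trimer of an alpha, a beta and a gamma chain, form their first network, type IV collagen forms another, and nidogens link them. Fibrillar collagens build the fibres of connective tissue, FACIT collagens sit on the surface of such fibres, and integrins, each a pair of an alpha and a beta subunit, are the receptors by which cells hold on to these proteins. In fetal cortex, radial glia anchor to the basement membrane under the meninges, and blood vessels carry basement membranes of their own.

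Library medians lay between 1.82 and 1.87. Of 9 neuron markers 7 were higher in CP, or 6 without both libraries numbered 1, and TUBB3 was higher in GZ, a call lost without CP 2, CP 3, GZ 1, GZ 2 or both libraries numbered 1. Of 5 radial glia markers measured above the minimum, 3 were higher in GZ and none in CP, with 1 higher in CP at an unadjusted p under 0.05. NES, higher in GZ, lost its call without CP 2, CP 3, GZ 1 or GZ 2. Without CP 3, 1 of these markers was called higher in CP and 2 higher in GZ. The libraries numbered 1 did not match each other in their Y-linked genes, whose median over 9 genes was 1.55 in CP 1 and -0.13 in GZ 1, while number 2 had 3.73 in CP and 3.75 in GZ, and number 3 had -1.73 in both. The libraries numbered 2 and 3 therefore did not come from the same fetus. Members whose call changed without both libraries numbered 1 are given with that value.

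Of the 82 members, 56 reached a mean of 0 across the 6 libraries and were tested with limma across all 13460 genes above that minimum. Adjusted p was under 0.05 for 24 of them, with 18 higher in CP and 6 higher in GZ. Of all genes tested, 45.4% were called, 20.9% higher in CP and 24.5% higher in GZ, so the members' share of 42.9% lay near the background. The members' calls fell mostly on the CP side, and their median difference was 0.12, against -0.05 over all genes tested. At least 2-fold differences were called for 11 members higher in CP and 1 higher in GZ, where 7.04% and 5.41% of all genes tested passed these rules. All CP libraries lay above all GZ libraries for 19 of the 56 members and all GZ libraries above all CP libraries for 7, against 25.5% and 30.9% of all genes tested. The families differed in their counts. Laminins and nidogens had 6 of 9 tested members higher in CP, collagens had 7 of 25 higher in CP and 3 higher in GZ, and integrin subunits had 3 of 19 higher in CP and 2 higher in GZ. Median differences were 1.22 for laminins and nidogens, 0.13 for collagens and -0.03 for integrin subunits. Without both libraries numbered 1 the counts were 4 and 0 for laminins and nidogens, 8 and 2 for collagens, and 2 and 3 for integrin subunits, higher in CP and higher in GZ in that order.

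**Figure D1:**
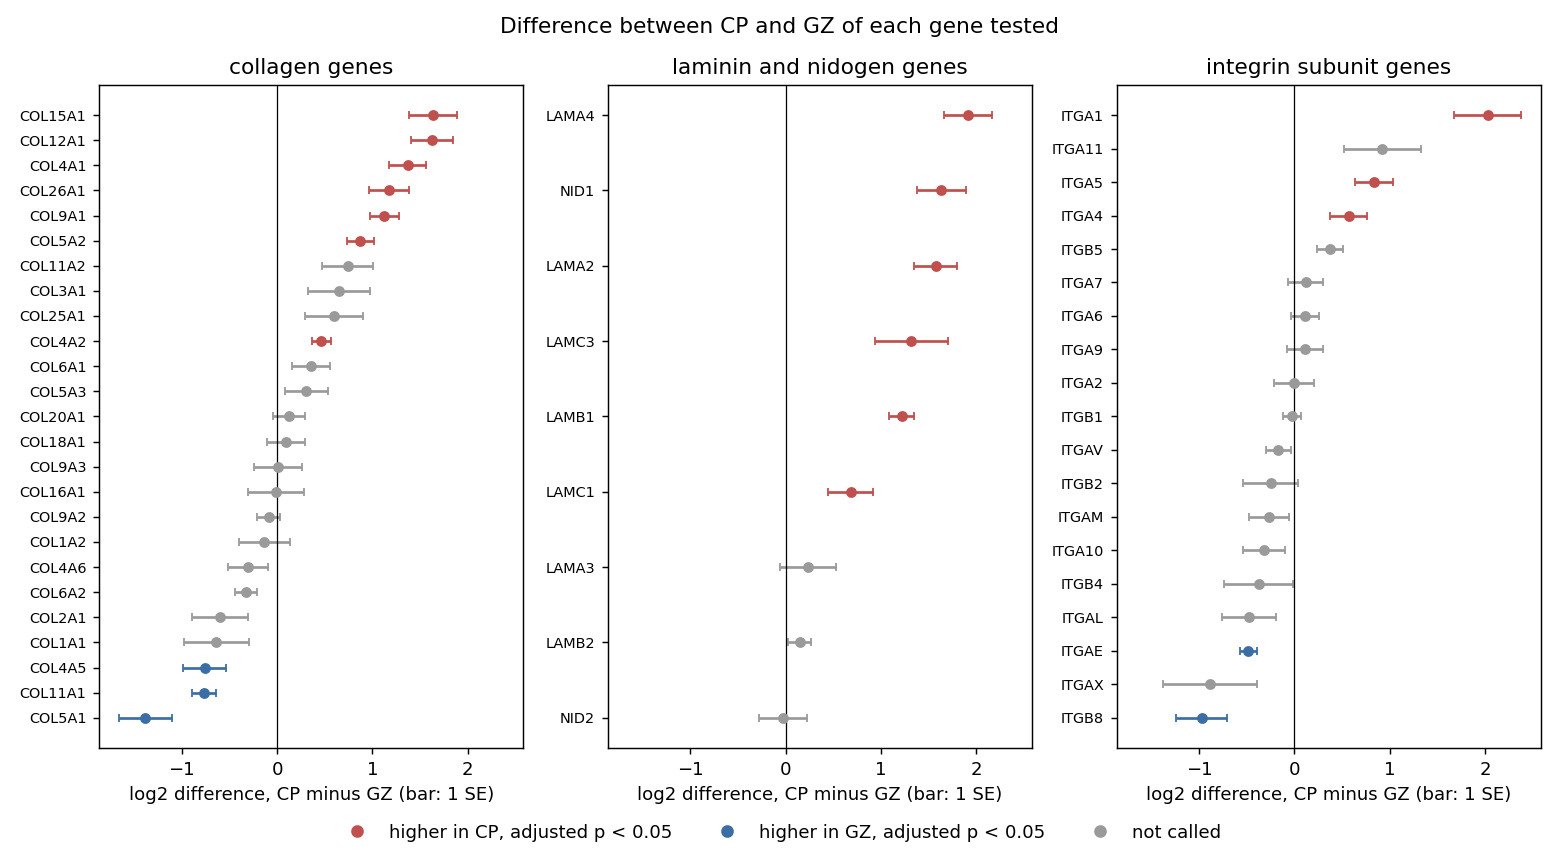
Difference in log2 normalized FPKM, CP minus GZ (x axis), for each tested collagen, laminin or nidogen, and integrin subunit gene, 1 panel per family; points are limma estimates with bars of 1 SE, red for adjusted p under 0.05 higher in CP, blue for higher in GZ and grey for not called. ITGA1 at 2.03 and LAMA4 at 1.91 lie farthest right and COL5A1 at -1.38 farthest left.

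The laminin and nidogen genes had the largest median difference of the families. Their summed FPKM was 137, 143 and 173 in CP, against 75.0, 57.1 and 81.8 in GZ, with no overlap between the tissues. Of the 9 members tested, 6 were higher in CP, and none was higher in GZ in the limma fit or at an unadjusted p under 0.05. LAMC1 and LAMC3 lost their calls when some libraries were left out, so 4 of 9 were higher in CP without CP 3.

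LAMA4, the alpha chain typical of vessel walls, had 4.85, 5.00 and 5.30 in CP, against 3.32, 2.55 and 3.55 in GZ. Every CP library lay above every GZ library, and GZ 2 was the lowest. Its difference was 1.91 ± 0.25, a 3.76-fold higher level in CP (adjusted p = 8.68e-04). LAMA4 also led the 3 alpha chains analysed here, with 85.6% ± 3.06 of their summed FPKM in CP and 75.8% ± 3.30 in GZ. LAMA1 and LAMA5 are not in this sum, so its share of all laminin alpha chains is not known. LAMA2, the alpha chain of muscle, nerve and vessel laminins, was far lower in level, with 1.68, 2.15 and 1.79 in CP and 0.49, -0.01 and 0.42 in GZ. It was nevertheless higher in CP by 1.57 ± 0.23 (2.98-fold, adjusted p = 0.00135). The level of LAMA4 over LAMA2 within a library was 3.18 ± 0.33 in CP and 2.84 ± 0.29 in GZ on the log2 scale, and these values overlapped. LAMA3, an epithelial alpha chain, had 0.49, 1.31 and 0.84 in CP, against 0.95, 0.23 and 0.76 in GZ, and was not called (difference 0.24 ± 0.29, adjusted p = 0.547).

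Among the beta chains, only LAMB1 of the 2 tested was called. LAMB1, the beta chain of most embryonic laminins, had 5.19, 5.23 and 5.36 in CP, against 4.20, 3.76 and 4.17 in GZ. This was the highest mean level of any laminin analysed here in both tissues, and the CP libraries had an SD of 0.09. The difference was 1.22 ± 0.13 (2.33-fold, adjusted p = 3.85e-04). LAMB2, the beta chain that replaces LAMB1 at mature synapses and in the kidney filter, had 4.07, 3.74 and 4.01 in CP and 3.81, 3.87 and 3.69 in GZ (difference 0.15 ± 0.12, adjusted p = 0.352). LAMB1 thus made up 69.7% ± 2.42 of summed beta chain FPKM in CP and 52.0% ± 5.19 in GZ, and LAMB2 27.9% ± 2.70 in CP and 43.7% ± 5.37 in GZ. GZ 2 alone held more LAMB2 than LAMB1.

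The gamma chains were the less stable calls. LAMC1, the gamma chain common to most laminins, had 3.90, 3.66 and 4.30 in CP and 3.18, 2.91 and 3.72 in GZ. CP 2 lay below GZ 3, so the tissues overlapped, and the difference of 0.68 ± 0.24 (1.61-fold) had an adjusted p of 0.0459. It lost its call without CP 1 (adjusted p = 0.0900), CP 3 (0.148), GZ 1 (0.117), GZ 2 (0.127) or both libraries numbered 1 (0.185), and with all libraries under eBayes without trend (0.0672) or without the low-value minimum (0.0534). LAMC3, a gamma chain whose human mutations cause occipital cortical malformations, had 1.69, 1.69 and 2.14 in CP and 0.67, -0.33 and 1.22 in GZ. It did not overlap and was higher in CP by 1.32 ± 0.38 (2.50-fold, adjusted p = 0.0235), but not past the threshold without CP 2 (0.0540), CP 3 (0.0811) or both libraries numbered 1 (0.0874).

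Of the nidogens, NID1 was higher in CP and NID2 was not called. NID1 had 4.77, 4.96 and 5.31 in CP, against 3.42, 2.83 and 3.90 in GZ, a difference of 1.63 ± 0.26 (3.10-fold, adjusted p = 0.00199). NID2, its paralog with the same linking role, had 1.68, 1.99 and 2.54 in CP and 2.42, 1.89 and 1.98 in GZ (difference -0.03 ± 0.25, adjusted p = 0.943). Within libraries NID1 stood 2.94 ± 0.16 above NID2 in CP and 1.28 ± 0.55 above it in GZ on the log2 scale, without overlap.

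**Figure D2:**
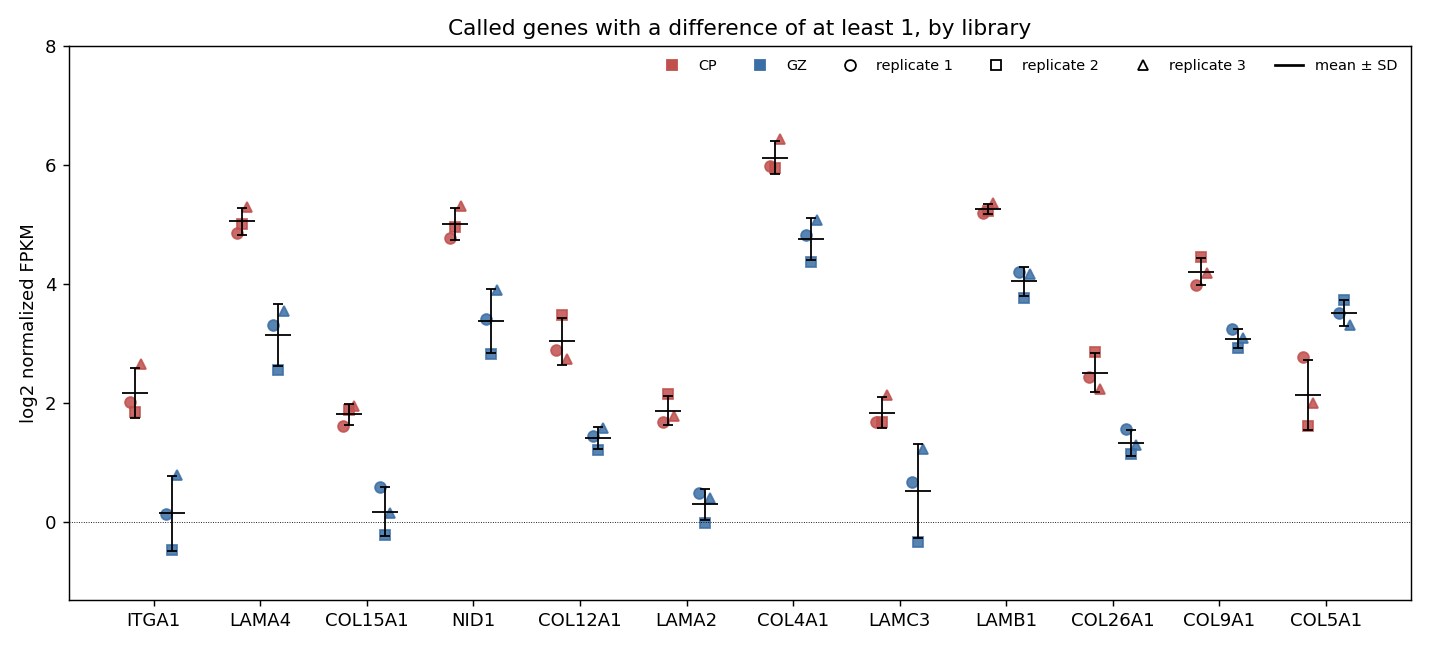
Log2 normalized FPKM (y axis) of the 12 members of the 3 families called with a difference of at least 1, in each CP (red) and GZ (blue) library; symbols give the library number, and black bars the mean and SD of 3 libraries. All CP points lie above all GZ points for 11 genes from ITGA1 to COL9A1, and COL5A1 is the gene with all GZ points above all CP points.

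Type IV collagen, the network collagen of basement membranes, held the collagen chains with the highest mean levels in both tissues. COL4A2 had 6.25, 6.41 and 6.52 in CP, against 6.06, 5.78 and 5.95 in GZ, and COL4A1 had 5.98, 5.95 and 6.44 in CP, against 4.82, 4.37 and 5.07 in GZ. Both were higher in CP without overlap, but by different amounts. COL4A1 differed by 1.37 ± 0.19 (2.59-fold, adjusted p = 0.00128) and COL4A2 by 0.46 ± 0.10 (1.38-fold, adjusted p = 0.00774). These chains assemble into one trimer and their genes lie next to each other in the RefSeq order. COL4A1 lay 0.27 ± 0.19 below COL4A2 in CP and 1.18 ± 0.27 below it in GZ on the log2 scale, with no overlap.

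COL4A5, an X-linked chain of the kidney and smooth muscle networks, went the other way. It had 1.87, 1.21 and 2.00 in CP and 2.40, 2.41 and 2.55 in GZ, with a difference of -0.76 ± 0.22 (1.69-fold higher in GZ, adjusted p = 0.0256). The call was lost without GZ 1 (adjusted p = 0.0631), GZ 2 (0.0563), GZ 3 (0.0601) or both libraries numbered 1 (0.0877). Its partner COL4A6 was not called (-0.31 ± 0.21, adjusted p = 0.274), and COL4A3 and COL4A4 lay below the minimum. Type IV chains together made up 47.0% ± 2.69 of summed collagen FPKM in CP and 36.3% ± 3.54 in GZ, without overlap.

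The multiplexins, collagens that carry sugar chains in basement membranes, were split as well. COL15A1 had 1.61, 1.88 and 1.95 in CP, against 0.60, -0.21 and 0.15 in GZ, and was higher in CP by 1.63 ± 0.25 (3.11-fold, adjusted p = 0.00177). This difference was 1.07 with a pseudocount of 1, since COL15A1 was low in GZ. COL18A1, the source of endostatin, had means of 2.22 ± 0.35 in CP and 2.13 ± 0.08 in GZ and was not called (0.09 ± 0.20, adjusted p = 0.742).

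Vessel cell markers moved with these genes. Of 12 endothelial markers listed, 10 were in the table and all 10 were higher in CP, or 8 of 10 without both libraries numbered 1. Their summed FPKM ranged from 99.5 to 150.4 in CP and from 27.2 to 53.2 in GZ. Of 7 pericyte and mural markers tested, 5 were higher in CP and MYH11, a smooth muscle myosin, was higher in GZ, and only 3 were higher in CP without CP 1, CP 3 or GZ 1. Their summed FPKM ranged from 88.7 to 111.4 in CP and from 36.5 to 57.5 in GZ. Of 4 erythroid markers tested, HBA and ALAS2 were higher in CP and the others were not called, with summed FPKM of 542 to 596 in CP and 298 to 489 in GZ. Leaving out CP 1, CP 2, CP 3 or GZ 1 left 1 call, and leaving out both libraries numbered 1 left none. The part of these cells in the members' differences was not tested. In bulk tissue, fewer cells of a type and less RNA per cell cannot be told apart.

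The basement membrane genes and the vessel markers mostly shared the library with the highest and that with the lowest level. The mean of the 10 endothelial markers was highest in CP 3 (3.68) and lowest in GZ 2 (1.21). Of the 9 laminin, nidogen, type IV and multiplexin genes called higher in CP, 8 were highest in CP 3, LAMA2 was highest in CP 2, and all 9 were lowest in GZ 2, while 3975 of all 13460 genes tested were highest in CP 3 and 4889 were lowest in GZ 2 among the libraries of their tissue.

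Set against the mean of the endothelial markers in the same library, 6 of these 9 genes overlapped between the tissues. COL4A1 lay 2.79 ± 0.05 above the marker mean in CP and 2.94 ± 0.19 above it in GZ, and NID1 lay 1.68 ± 0.08 above it in CP and 1.57 ± 0.13 in GZ, with overlap for both. LAMB1, LAMA2, LAMC3 and COL15A1 overlapped too. LAMA4 and the integrin subunit gene ITGA1 had every CP library above every GZ library. LAMA4 lay 1.72 ± 0.11 above the marker mean in CP and 1.33 ± 0.01 above it in GZ, and ITGA1 lay 1.15 ± 0.15 below it in CP and 1.66 ± 0.21 below it in GZ. COL4A2 and LAMC1 separated the other way. COL4A2 lay 3.06 ± 0.20 above the marker mean in CP and 4.12 ± 0.43 above it in GZ, and LAMC1 lay 0.62 ± 0.14 above it in CP and 1.46 ± 0.25 above it in GZ. Outside these genes, COL5A2, ITGA4, ITGA5 and ITGB1BP1, also called higher in CP, were lower against the marker mean in every CP library than in every GZ library. With 3 libraries a tissue, an exact two-sided permutation test cannot give a p below 0.10, so these are values without a test.

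**Figure D3:**
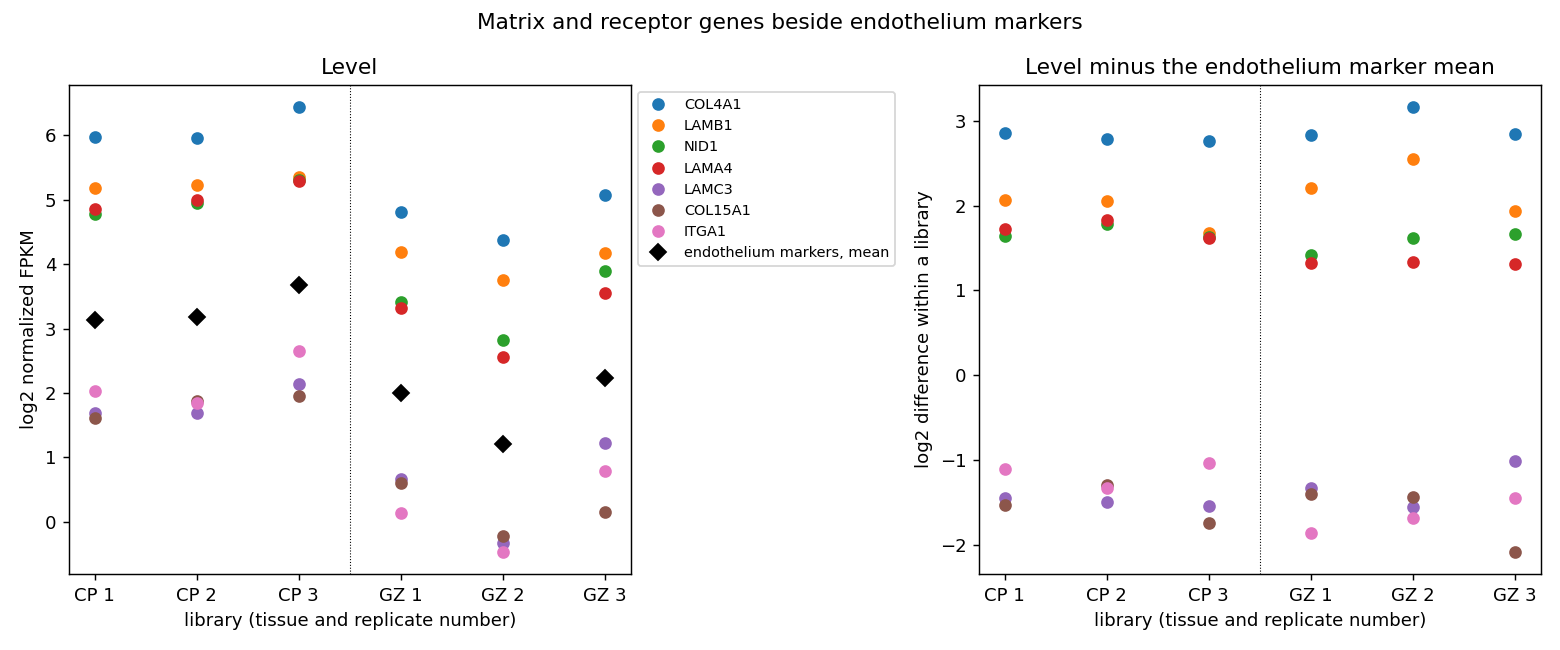
Left, log2 normalized FPKM of 7 members and the mean of 10 endothelial markers (black diamonds) in each library, CP 1 to 3 and then GZ 1 to 3; right, the same members minus that marker mean within the library. On the left the members and the marker mean are lower in every GZ library, with marker means of 3.13 to 3.68 in CP and 1.21 to 2.23 in GZ; on the right, of these 7, LAMA4 and ITGA1 have all CP points above all GZ points.

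Fibrillar collagens had calls in both directions. Of 9 tested, COL5A2 was higher in CP, COL5A1 and COL11A1 were higher in GZ, and 6 were not called. Their share of summed collagen FPKM was 19.3% ± 1.78 in CP and 28.6% ± 2.85 in GZ.

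COL5A1 and COL5A2 code for chains of type V collagen, which starts and limits fibre growth, and they differed in opposite directions. COL5A1 had 2.78, 1.62 and 2.01 in CP, against 3.51, 3.74 and 3.31 in GZ, a difference of -1.38 ± 0.28 (2.60-fold higher in GZ, adjusted p = 0.00566). COL5A2 had 3.49, 3.24 and 3.64 in CP, against 2.61, 2.48 and 2.66 in GZ, a difference of 0.87 ± 0.14 (1.83-fold higher in CP, adjusted p = 0.00216). Within a library COL5A1 lay 1.32 ± 0.53 below COL5A2 in CP and 0.94 ± 0.31 above it in GZ, the widest change among the chain pairs compared.

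COL11A1 codes for a chain of type XI collagen, a cartilage collagen related to type V. It had 4.16, 3.79 and 3.85 in CP and 4.72, 4.81 and 4.56 in GZ, the highest mean level of any fibrillar collagen analysed here in both tissues. It was higher in GZ by 1.69-fold (difference -0.76 ± 0.13, adjusted p = 0.00235). Its partner COL11A2 had 1.94, 2.82 and 2.35 in CP and 2.02, 1.37 and 1.48 in GZ, the largest difference among collagens not called (0.74 ± 0.27, adjusted p = 0.0545). COL11A2 overlapped only through the libraries numbered 1, and without CP 1 (0.96, adjusted p = 0.0292), GZ 1 (0.94, 0.0390) or both (1.16, 0.0247) it was called higher in CP.

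The main collagens of connective tissue were not called. COL1A1 had 0.89, 1.08 and 2.05 in CP and 1.72, 2.46 and 1.74 in GZ (difference -0.64 ± 0.34, adjusted p = 0.165), and was called higher in GZ without CP 3 (-0.99, adjusted p = 0.0329). COL1A2, its partner in type I collagen, had 3.31, 3.47 and 4.11 in CP and 3.94, 4.08 and 3.27 in GZ (-0.13 ± 0.27, adjusted p = 0.716). COL3A1, which forms fibres in vessel walls and meninges, had 2.93, 2.74 and 3.58 in CP and 2.57, 1.80 and 2.94 in GZ (0.65 ± 0.32, adjusted p = 0.134), and was called higher in CP without GZ 3 (0.90, adjusted p = 0.0494). These genes are typical of fibroblasts. Of 10 meningeal fibroblast markers listed, 8 were in the table and 4 were tested, of which none was called by limma and 1 in each direction had an unadjusted p under 0.05. Calls of 1 higher in CP appeared without CP 1, GZ 3 or both libraries numbered 1, and of 1 higher in GZ without GZ 2. Their summed FPKM ranged from 105.6 to 106.6 in CP and from 104.3 to 145.0 in GZ, mostly from PDGFRA and DCN, so the sum says little about the other markers. Of the 4 tested, 3 had a positive and 1 a negative difference, with a median of 0.46. LUM had the largest (1.07 ± 0.39, adjusted p = 0.0544).

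Of 6 FACIT collagens tested, COL12A1 and COL9A1 were higher in CP and none was higher in GZ, at an unadjusted p under 0.05 as well. COL12A1, a fibre-surface collagen of tendon and dense connective tissue, had 2.89, 3.49 and 2.74 in CP, against 1.45, 1.21 and 1.59 in GZ (1.62 ± 0.22, 3.08-fold, adjusted p = 0.00110). COL9A1, a type IX chain, had 3.99, 4.45 and 4.19 in CP, against 3.24, 2.92 and 3.09 in GZ (1.13 ± 0.15, 2.18-fold, adjusted p = 9.22e-04). Both were highest in CP 2, as was LAMA2 but none of the other 8 basement membrane genes called higher in CP. The other type IX chains were not called. COL9A2 had 4.50, 4.54 and 4.13 in CP and 4.42, 4.53 and 4.48 in GZ (-0.09 ± 0.12, adjusted p = 0.596), and COL9A3 averaged 3.84 ± 0.53 in CP and 3.83 ± 0.21 in GZ (adjusted p = 0.966). COL26A1, outside the main structural classes, had 2.44, 2.87 and 2.23 in CP, against 1.57, 1.14 and 1.30 in GZ (1.18 ± 0.21, 2.26-fold, adjusted p = 0.00345).

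Type VI collagen, a beaded filament collagen next to basement membranes, had no chain called. COL6A1 had 3.25, 2.84 and 3.40 in CP and 2.79, 2.53 and 3.11 in GZ (0.35 ± 0.20, adjusted p = 0.186). COL6A2 had 3.71, 3.54 and 3.77 in CP and 4.15, 3.86 and 4.00 in GZ, higher in every GZ library (-0.33 ± 0.12, adjusted p = 0.0527), and was called higher in GZ without GZ 2 (-0.40, adjusted p = 0.0492). COL6A3, the third chain of the common trimer, was low, with -1.65, -1.74 and -1.65 in CP and -1.33, 0.24 and -1.08 in GZ, and was not tested. Of the other tested collagens, COL2A1, COL5A3, COL16A1, COL20A1 and COL25A1 were not called, with COL25A1 higher in CP only without CP 1 (0.89, adjusted p = 0.0342).

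Of 9 pairs of collagen chains that can share a trimer, 6 had ratios that did not overlap between the tissues and 3 had ratios that did. Besides types IV, V and XI, COL9A1 lay 0.18 ± 0.30 below COL9A2 in CP and 1.39 ± 0.21 below it in GZ, and COL6A2 lay 0.51 ± 0.17 above COL6A1 in CP and 1.19 ± 0.26 above it in GZ, all without overlap, as was COL9A1 against COL9A3. COL1A2 lay 2.29 ± 0.19 above COL1A1 in CP and 1.79 ± 0.37 above it in GZ, with overlap. COL4A5 lay 1.14 ± 0.43 above COL4A6 in CP and 1.59 ± 0.09 above it in GZ, and COL6A2 lay 5.35 ± 0.07 above COL6A3 in CP and 4.73 ± 0.98 above it in GZ, also with overlap. Over all 21 pairs of members compared, integrins and laminins included, 16 did not overlap. Of all single genes tested, 25.5% had CP above GZ without overlap and 30.9% had the reverse. No share over all gene pairs was computed, and some genes recur in several pairs. A scale factor common to all genes of a library cancels in ratios within it. The deposited normalization may treat genes differently, and its part in these ratios was not tested. Neighbouring genes did not always share a direction either. Of 9 pairs of members that are next to each other in the RefSeq order of assembly T2T-MMU8v2.0, which was used for gene order only, 4 had both genes tested, and COL6A1 and COL6A2 were the pair with opposite signs.

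**Figure D4:**
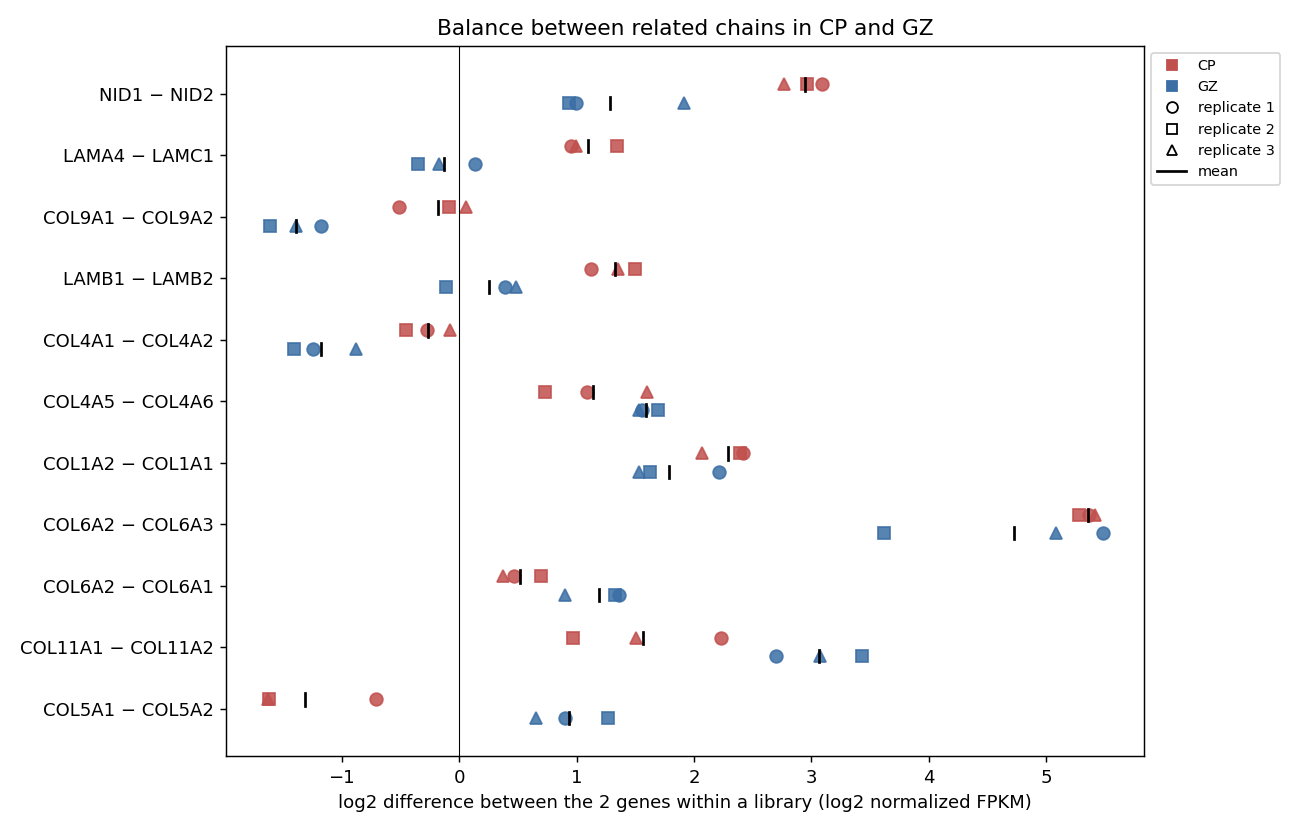
Log2 difference between related chains within a library (x axis) for 11 pairs, in 3 CP (red) and 3 GZ (blue) libraries; symbols give the library number and black ticks the mean. COL4A5 minus COL4A6, COL1A2 minus COL1A1 and COL6A2 minus COL6A3 overlap between the tissues and the other pairs shown do not, and COL5A1 minus COL5A2 is below 0 in every CP library and above 0 in every GZ library.

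Integrin subunits had similar sums in the tissues. Their summed FPKM was 191, 178 and 207 in CP, against 192, 197 and 203 in GZ, and 14 of 19 tested were not called. ITGB1, the common beta subunit that pairs with most laminin and collagen receptors, had 5.79, 5.88 and 6.06 in CP and 5.95, 6.01 and 5.84 in GZ. It held 65.0% ± 5.97 of summed beta subunit FPKM in CP and 61.5% ± 5.34 in GZ, and its difference was -0.03 ± 0.09 (adjusted p = 0.847).

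The collagen-binding alpha subunits held the largest difference of the 56 members tested. ITGA1, which with ITGB1 binds type IV collagen, had 2.03, 1.85 and 2.65 in CP, against 0.13, -0.47 and 0.79 in GZ. Its GZ mean of 0.15 lay near the minimum of 0, so the size of its difference rests on low GZ values. ITGA1 was highest in CP 3 and lowest in GZ 2, as were 8 of the 9 basement membrane genes called higher in CP. It was 4.07-fold higher in CP (2.03 ± 0.35, adjusted p = 0.00290). ITGA1 lay 3.73 ± 0.31 below ITGB1 in CP and 5.78 ± 0.71 below it in GZ. ITGA11, a receptor for fibrillar collagen on fibroblasts, had 1.49, 1.59 and 2.45 in CP and 1.32, 0.07 and 1.37 in GZ. The libraries did not overlap, but with 0.92 ± 0.40 the adjusted p was 0.0974. ITGA2 (difference -0.00, adjusted p = 0.991) and ITGA10 (-0.32, adjusted p = 0.278) were not called.

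The 2 laminin-binding alpha subunits tested were not called, while LAMA4, LAMA2, LAMB1 and NID1 were. This contrast between families was not itself tested, and the third such subunit, ITGA3, went with the laminins. ITGA6, a laminin receptor of radial glia and vessels, had 3.98, 3.76 and 4.24 in CP and 3.90, 4.00 and 3.75 in GZ (0.11 ± 0.14, adjusted p = 0.561). ITGA7, a laminin receptor of muscle, differed by 0.12 ± 0.19 (adjusted p = 0.640). ITGA3, the laminin receptor whose loss disturbs cortical layering in mice, lay below the minimum and is given with the genes not tested. Every CP library lay above every GZ library for ITGA3. In the limma fit without the minimum it was higher in CP by 1.05 (adjusted p = 0.00472).

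Among the subunits that bind RGD-containing ligands, ITGA5 was higher in CP and ITGB8 higher in GZ. ITGA5, the fibronectin receptor subunit, had 2.59, 2.74 and 3.23 in CP, against 1.91, 1.95 and 2.20 in GZ (0.84 ± 0.20, 1.78-fold, adjusted p = 0.0106). Its ligand FN1 had 6.15, 5.92 and 6.84 in CP, against 4.67, 4.12 and 5.42 in GZ, so receptor and ligand were both higher in CP (FN1 2.96-fold, adjusted p = 0.00740). Without both libraries numbered 1, FN1 had an adjusted p of 0.052. ITGAV, the alpha subunit shared by several such receptors, had 4.48, 4.17 and 4.66 in CP and 4.71, 4.57 and 4.55 in GZ (-0.17 ± 0.13, adjusted p = 0.323). It held the largest share of alpha subunit FPKM, with 22.0% ± 2.01 in CP and 25.0% ± 1.64 in GZ.

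The beta partners of ITGAV differed in balance between the tissues. ITGB8, which with ITGAV activates TGF-beta and is known from radial glia of mice, had 3.35, 2.31 and 3.03 in CP, against 3.62, 3.78 and 4.21 in GZ. All GZ libraries were above all CP libraries (-0.97 ± 0.27, 1.96-fold higher in GZ, adjusted p = 0.0205), and the call was lost without GZ 3 (-0.80, adjusted p = 0.0532). ITGB5, a vitronectin receptor subunit, had 3.96, 3.83 and 3.84 in CP and 3.39, 3.35 and 3.76 in GZ, with no overlap (0.37 ± 0.13, adjusted p = 0.0516), and was called higher in CP without GZ 3 (0.50, adjusted p = 0.00936). ITGB5 lay 0.98 ± 0.48 above ITGB8 in CP and 0.37 ± 0.12 below it in GZ, without overlap. ITGB5 is also on the list of 7 outer radial glia markers, of which 5 were tested, with 1 called on the CP side and 2 on the GZ side, or 3 and 1 without GZ 3.

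ITGA4, the alpha subunit that binds VCAM1 and fibronectin, had 1.40, 1.47 and 1.47 in CP and 0.90, 0.62 and 1.10 in GZ (0.57 ± 0.20, 1.48-fold, adjusted p = 0.0451). Its call was unstable, and the adjusted p was between 0.0830 and 0.159 without CP 1, CP 2, CP 3, GZ 1, GZ 2 or both libraries numbered 1. ITGA9, its close relative, was not called (0.11 ± 0.19, adjusted p = 0.671).

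The leukocyte integrins, borne in brain mainly by microglia and macrophages, varied widely within each tissue. ITGB2, their common beta subunit, had 3.35, 2.61 and 2.38 in CP and 2.55, 3.23 and 3.30 in GZ. ITGAX had 0.90, 0.03 and -0.66 in CP and 0.06, 1.45 and 1.41 in GZ, and ITGAM had 1.88, 1.52 and 1.46 in CP and 1.59, 2.15 and 1.93 in GZ. All 4 genes, ITGAL included, were highest in CP 1 among CP libraries and lowest in GZ 1 among GZ libraries. Of 11 microglia markers listed, 6 were tested and none was called, and they had the same order in CP 1 and GZ 1, with mean log2 levels of 3.38, 2.78 and 2.78 in CP and 2.53, 3.19 and 3.37 in GZ, and a summed FPKM of 65.0 to 100.1 in CP and 52.4 to 88.8 in GZ.

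None of the 4 leukocyte integrins was called with all libraries, by limma or at an unadjusted p under 0.05. Without both libraries numbered 1, ITGB2 (-0.77, adjusted p = 0.0357) and ITGAX (-1.75, adjusted p = 0.0169) were called higher in GZ, as were 2 of the 6 microglia markers. The part of the number 1 libraries in these levels was not tested. Relative to the microglia marker mean of the same library, ITGB2 lay 0.21 ± 0.19 below it in CP and 0.00 ± 0.06 below it in GZ, with overlap, and ITGAM overlapped too. ITGAX lay 2.89 ± 0.50 below the marker mean in CP and 2.05 ± 0.37 below it in GZ, and ITGAL lay 2.86 ± 0.14 below it in CP and 2.42 ± 0.08 below it in GZ, both without overlap.

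**Figure D5:**
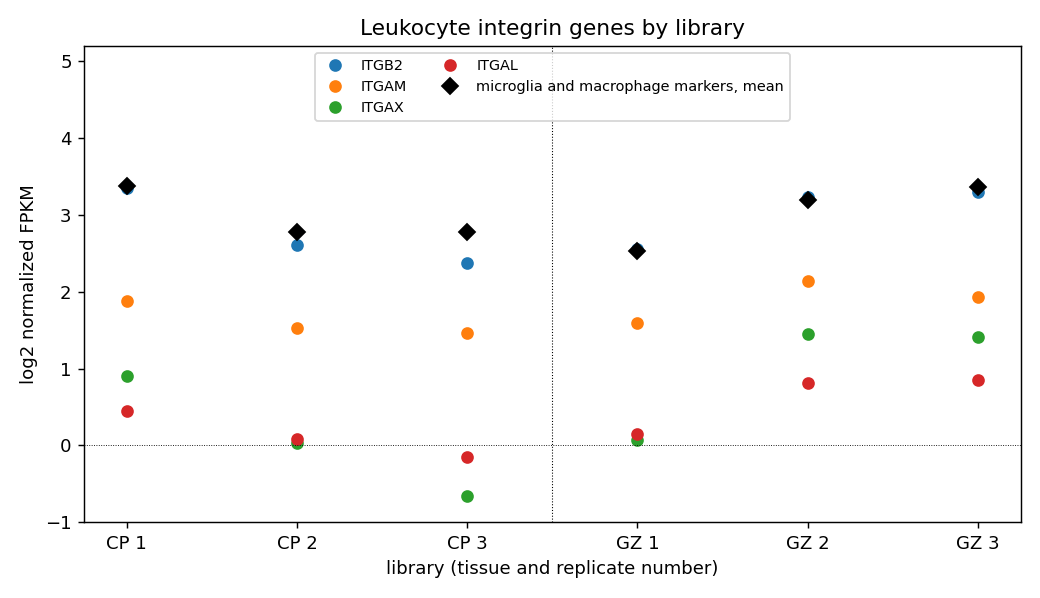
Log2 normalized FPKM (y axis) of ITGB2, ITGAM, ITGAX and ITGAL and the mean of 6 microglia and macrophage markers (black diamonds) in each library, CP 1 to 3 and then GZ 1 to 3. CP 1 is the highest CP library and GZ 1 the lowest GZ library for each of the 4 integrins.

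ITGAE, grouped with the leukocyte integrins by its known role in intraepithelial T cells, did not follow them. It had 3.93, 3.88 and 3.87 in CP, against 4.49, 4.31 and 4.33 in GZ, with SDs of 0.03 in CP and 0.10 in GZ (-0.48 ± 0.09, 1.40-fold higher in GZ, adjusted p = 0.00447). Without both libraries numbered 1 its adjusted p was 0.0647. ITGB7, its only known partner, was listed far lower, with -2.20, -2.15 and -1.79 in CP and -1.55, -1.61 and -1.63 in GZ.

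Of the genes that share the symbol pattern without being subunits, 3 were tested and all 3 were called. ITGB1BP1, a cytoplasmic protein that binds the ITGB1 tail and restrains activation, was higher in CP (5.70, 5.95 and 5.75 in CP, 5.35, 5.15 and 5.14 in GZ, difference 0.59 ± 0.10, adjusted p = 0.00227). ITGBL1, a secreted protein related to beta subunits, was 1.79-fold higher in CP (adjusted p = 0.00446). ITGB3BP, a centromere protein also known as CENPR, had 3.73, 3.63 and 3.91 in CP and 4.51, 4.73 and 3.95 in GZ (-0.64 ± 0.20, 1.56-fold higher in GZ, adjusted p = 0.0286). That call was lost without CP 1 (adjusted p = 0.0738), CP 2 (0.0887), GZ 1 (0.0895), GZ 2 (0.0813) or both libraries numbered 1 (0.172).

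The 26 members below the minimum had means between -3.63 and -0.01 and hold 16 collagens, 3 laminins, 6 integrin subunits and ITGB1BP2. Of these, 3 had every CP library above every GZ library and 11 (42.3%) had the reverse, while among all 8885 genes not tested 2.59% and 17.1% did so. Among the 8776 of them within the members' range of means, 2.62% and 17.3% did so. Genes were not matched for level within that range, so the part of level in these shares was not tested. Their median difference was -0.42, against -0.40 over all genes not tested. Without the minimum, 3 of the 26 were called in each direction, against 1.41% higher in CP and 5.06% higher in GZ of all 8885 genes not tested. COL21A1, a vessel wall collagen, had 0.37, 0.54 and 0.43 in CP, against -0.85, -1.06 and -0.80 in GZ (adjusted p = 0.00135). ITGA3 had 0.36, 0.22 and 0.59 in CP, against -0.64, -0.77 and -0.59 in GZ (adjusted p = 0.00472), and ITGA8, the receptor subunit for nephronectin, had -0.05, 0.51 and 0.57 in CP, against -0.63, -0.76 and -0.22 in GZ (adjusted p = 0.0294). COL27A1, ITGA2B and ITGB3 were higher in GZ, and ITGA2B and ITGB3 pair as the platelet fibrinogen receptor. The 5 platelet markers listed had summed FPKM of 8.14 to 10.7 in CP and 7.86 to 13.7 in GZ, and 1 of them was tested and not called.

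Genes that work with the members had calls in both directions. On 6 lists of matrix and adhesion genes 89 were tested, of which 24 (27.0%) passed on the CP side and 13 (14.6%) on the GZ side. Over all genes tested the shares were 20.9% and 24.5%. The counts of the lists were 16 and 6 without both libraries numbered 1, and 7 on the GZ side without CP 1. Basement membrane partners had 3 of 10 higher in CP and 3 higher in GZ. NPNT, which codes for nephronectin, had 3.15, 3.67 and 2.79 in CP, against 1.74, 1.53 and 0.91 in GZ (3.51-fold, adjusted p = 0.00191). FREM1, a basement membrane protein, was 1.73-fold higher in CP, a call lost without CP 2, CP 3, GZ 1, GZ 2 or both libraries numbered 1. SMOC1, a calcium-binding matrix protein, was 2.15-fold higher in GZ. The count higher in CP was 2 without CP 3, GZ 1 or GZ 2, and 1 without both libraries numbered 1, when 2 were higher in GZ. HSPG2 and AGRN, the large heparan sulfate proteoglycans of the basement membrane, had differences of 0.53 ± 0.22 (adjusted p = 0.0897) and 0.03 ± 0.11 (adjusted p = 0.827).

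Collagen folding and processing genes had 5 of 20 higher in CP and BMP1, a procollagen protease, higher in GZ. SERPINH1, the collagen chaperone HSP47, had 4.72, 4.87 and 5.16 in CP, against 3.83, 3.42 and 3.91 in GZ (2.29-fold, adjusted p = 0.00104). ADAMTS3 and ADAMTS2, procollagen proteases, were 3.49-fold and 2.36-fold higher in CP, and ADAMTS2 lost its call without CP 2, CP 3, GZ 2 or GZ 3. The count higher in CP was 3 without GZ 2, and BMP1 was called with all libraries and without GZ 1, but not without any other single library.

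Intracellular adhesion genes had 6 of 21 higher in CP and 2, FERMT3 and SRC, higher in GZ, neither of which was called without CP 1, CP 2, GZ 2 or GZ 3. PTK2B, a focal adhesion kinase relative abundant in neurons, had 3.77, 3.89 and 3.69 in CP, against 1.24, 1.05 and 0.97 in GZ (6.49-fold, adjusted p = 3.11e-05). PARVB, an actin linker at adhesions, was 2.37-fold higher in CP. FERMT3, the blood cell kindlin, was 1.57-fold higher in GZ. The count higher in CP was 3 without GZ 1 or both libraries numbered 1.

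Dystroglycan is the other main laminin receptor. The list of its gene DAG1, of DMD, UTRN and SGCE, and of genes that glycosylate it had 4 of 15 higher in CP. DMD was among these, and DAG1 itself was not called (-0.14 ± 0.10, adjusted p = 0.302). POMT1, an O-mannosyltransferase, was higher in GZ, a call lost without CP 1 or both libraries numbered 1. B4GAT1, an enzyme needed for the laminin-binding sugar chain of dystroglycan, was 1.65-fold higher in CP. The count higher in CP was 2 without CP 2 and 3 without both libraries numbered 1. Among 13 other integrin ligands POSTN, RELN and CCN3 were higher in CP and none higher in GZ, at an unadjusted p under 0.05 as well. POSTN had 3.90, 4.91 and 3.32 in CP, against -0.69, -0.21 and -1.41 in GZ (28.1-fold, adjusted p = 1.89e-04). Its GZ mean of -0.77 lay under the minimum of 0, which POSTN passed through its CP level. The size of this fold therefore rests on low GZ values. CCN3, a matricellular protein, had 3.92, 4.11 and 3.88 in CP, against 2.02, 1.70 and 2.09 in GZ (4.10-fold, adjusted p = 8.00e-05). The counts were 5 in CP and 1 in GZ without GZ 3, and 3 and 1 without both libraries numbered 1.

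Matrix proteases and their inhibitors were the list with more genes higher in GZ, 6 of 10, against 3 higher in CP. MMP14, a membrane-bound collagenase, had 4.52, 3.63 and 3.86 in CP, against 5.05, 5.57 and 5.21 in GZ (2.42-fold higher in GZ, adjusted p = 0.00341), and MMP15, its relative, was 1.64-fold higher in GZ. MMP17, which is anchored by a lipid, was 3.46-fold and MMP24, a neuronal membrane protease, 1.97-fold higher in CP. The count higher in GZ was 4 without CP 1, CP 2, GZ 1 or GZ 3, 5 without CP 3, and 3 without both libraries numbered 1. The count higher in CP was 2 without GZ 1, GZ 2, GZ 3 or both libraries numbered 1.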

How the data were processed

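RNA was measured in 6 libraries, 3 of CP and 3 of GZ. The table holds FPKM on a log2 scale, which the authors normalized with cqn (conditional quantile normalization) before they deposited it, per the labels. The submitters' processing notes name STAR and SAMtools among tools for all assays, and the builds Mmul_8.0.1 and rheMac8, all without roles. No source used here gives the read counter. Read totals are not given either, so depth is unknown and no interval from counts was made. A reference table gave symbols for 14700 of 22345 gene identifiers (65.8%).

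Groups and library numbers came from the sample titles. Genes with a mean log2 value of at least 0 (13460) were fitted with limma 3.58.1 in R 4.3.3 (lmFit, then eBayes with trend, no block, no pseudocount), as the difference CP minus GZ, with Benjamini-Hochberg adjustment over all of them. The script was tested on simulated data. Other steps used pandas 2.3.3 and numpy 2.4.6 in Python 3.11.15. Chain ratios are differences of log2 values within a library, and shares use summed FPKM after undoing the log2.

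The members and all gene lists were chosen with earlier results of these data known. Genes given per library are members called with a difference of at least 1, all members higher in GZ, the 3 highest members of each family, chains that assemble together and the largest difference not called in each family, and of every other list up to 4 called genes. Further members were named after their values were seen. Some genes named by this rule are left out here. The 15 alternatives comprised fits without each library in turn or without both numbered 1, quantile normalization or median centring, a minimum mean of 1 or no minimum, eBayes that was robust or had no trend, an added pseudocount of 1, and the library number as a replicate block. Hi-C, DNase-seq and CTCF files were not used here, and sequences are not shown.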

Additional observations from a re-analysis of the deposited data

How the results depend on the processing

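Of the gene values recomputed without leaving out a library, 433 of 442 kept their call or lack of one. Of the others, 4 lost their call and 5 gained one, and no call was reversed. With libraries left out 357 of 392 did so, 25 lost a call, 10 gained one and no call was reversed. The genes concerned are named with their values beside each result. Small differences that were not called could change sign. Over the alternatives COL9A3 ranged from -0.26 to 0.31 and NID2 from -0.26 to 0.33. Without the low-value filter the collagen median difference was -0.043 and the laminin and nidogen median 0.46, since 16 collagens and 3 laminins with low values joined, and integrin subunits had 5 calls on the CP side and 4 on the GZ side. Leaving out 1 library at a time gave collagen medians between 0.13 and 0.25, 1 to 2 integrin subunits higher in GZ, and 7 to 10 genes of the other lists higher in GZ. Without both libraries numbered 1, all genes tested gave 1716 calls on the CP side and 1647 on the GZ side, and the other lists 6 on the GZ side, with 2 libraries per tissue left. A pseudocount of 1 lowered the difference of COL15A1 to 1.07 and of LAMC3 to 0.88. ITGA4 lost its call at a minimum mean of 1 (adjusted p = 0.0526), and ITGB5 gained one there (0.0494) and with median centring (0.0499).

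Labels do not say whether a shared number pairs CP and GZ libraries. Deviations of same-numbered libraries correlated at -0.38, 0.30 and 0.35. CP 2 and CP 3 correlated best with the GZ library of their own number and CP 1 with GZ 2, which is a hint from the data and not from the design. Since the labels are silent and the libraries numbered 1 did not match in Y-linked genes, the numbers were not used as a block in the main result. In those genes the medians of CP 1 and GZ 1 both lay between those of numbers 2 and 3. Whether CP 1 and GZ 1 stem from the same fetus is not known. With the replicate block, collagens had 8 calls on the CP side and 4 on the GZ side, laminins and nidogens had 6 and 0, integrin subunits 3 and 2, and all genes 2817 and 3300. Under the block COL3A1, COL6A2 and ITGA11 gained a call and ITGA4 lost it, and meningeal fibroblast markers had 1 call in each direction. Read depth is unknown, so the precision of low values such as LAMC3, LAMA2 and COL15A1 is known only from the spread between libraries.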
